A study of Mus musculus with 188 samples.

Results

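Exposure of mouse brain slices to heme-albumin at 12.5 µM, the lowest dose of a series that reached 400 µM, was compared with control slices after 24 h. All libraries of sequencing batch 1 whose treatment tag gives one of these conditions were taken, 10 exposed and 10 control, which makes 20 of the 188 libraries of the series. Heme-albumin was hemin bound to human albumin, added on day 7 of culture. The study's text calls the control medium only in one place and vehicle in another, so albumin and heme cannot be told apart in this comparison. Both groups came from coronal organotypic slices, 150 µm thick, of wild-type C57BL/6J mice of both sexes aged 6 to 8 weeks. The labels do not say which libraries share an animal, so p-values measure the spread between these libraries, which may be partly technical. Whole counts per gene were deposited, and levels are given here as CPM, read counts scaled to a common library size. Because slices hold many cell types, fewer cells of a type and less RNA per cell cannot be told apart.

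Heme is the iron porphyrin of hemoglobin, and when blood breaks down in brain tissue it is released outside its protein. Cells take it up, open its ring with heme oxygenase, and store or export the iron. Heme also lowers its own synthesis through ALAS1, the enzyme of the first and limiting step. Oxidants and electrophiles free the transcription factor NRF2 from KEAP1, and heme removes the repressor BACH1, so that genes for glutathione, NADPH and detoxification are transcribed from antioxidant response elements.

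The exposed and control libraries differed in few genes. Of 15554 genes tested, 7 passed the test (0.0450%), of which 6 were higher (0.0386%) and 1 was lower (0.00643%) at 12.5 µM. The genes that rose were Osgin1, Srxn1, Gclm and Ephx1, which are known NRF2 targets, together with Ptprn and Ikbkg, and the gene that fell was Alas1. Their log2 fold changes ran from -0.33 to 0.61. The test was edgeR's quasi-likelihood F test on all 60 libraries of the batch, with Benjamini-Hochberg adjustment. Fitted on the 20 libraries alone, Alas1 alone passed, with an adjusted p of 0.00255 by the same edgeR test, and the smallest adjusted p of the other 6 was 0.0614, for Srxn1. On the 60 libraries, DESeq2 called 14 genes, and edgeR with the library code as a replicate block called 22. Both of these sets included the 7.

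Alas1 (ENSMUSG00000032786), on chromosome 9 of GRCm38 from 106233455 to 106248654 on the minus strand, was the gene with the clearest separation. Its level in the controls was 63.4 CPM at the lowest, 67.5 at the median and 73.7 at the highest. At 12.5 µM it was 50.8 at the lowest, 52.6 at the median and 61.9 at the highest. The groups did not overlap for Alas1, and no other gene had every exposed library below every control (1 of 15554, 0.00643%), while no gene had every exposed library above every control. The mean of Alas1 fell from 67.9 ± 3.66 CPM (SD, n = 10) to 53.9 ± 3.43 CPM (n = 10), a log2 fold change of -0.33 (SE 0.0600, adjusted p = 0.00617 by edgeR). Without the 3 control and 3 exposed libraries that held choroid plexus RNA, its log2 fold change was -0.32 and its adjusted p by edgeR 0.119. An antisense gene, 4930500F10Rik, shares 695 bases with Alas1, and since a stranded count is not stated, their reads cannot be told apart there. The other 7 enzymes of heme synthesis did not pass the test. Of these, Alad, the next enzyme in the pathway, had 14 ± 2.44 CPM in controls and 16 ± 1.91 CPM at 12.5 µM (log2 fold change 0.19, unadjusted p = 0.0149), and the median over all 8 was 0.01.

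**Figure D1:**
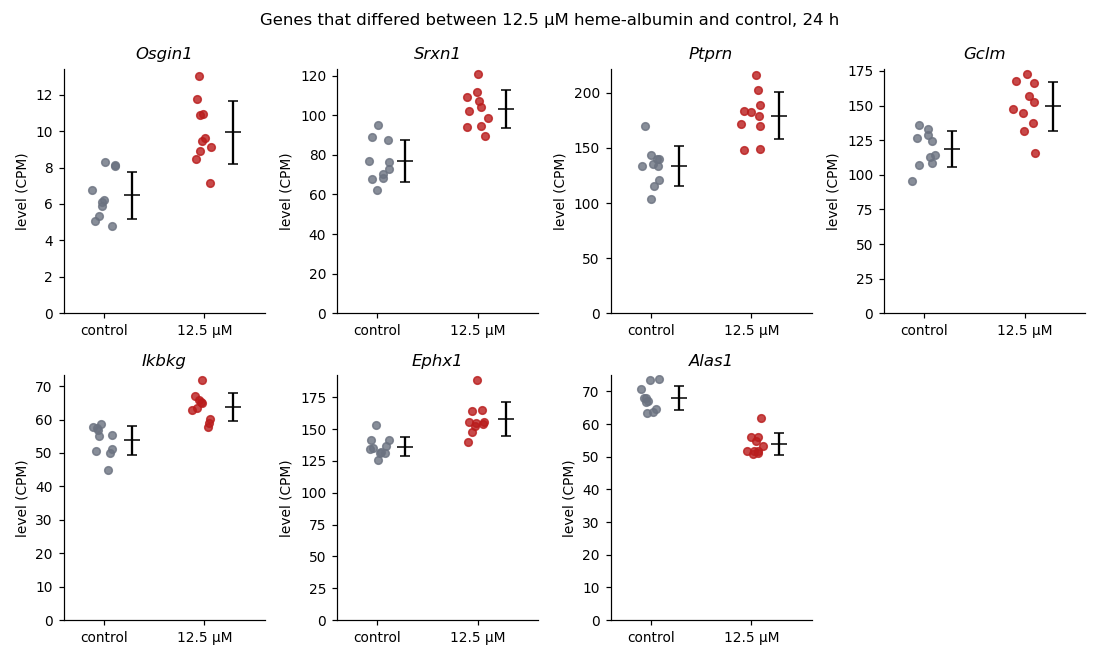
Levels in CPM (vertical axes, from 0) of the 7 genes that passed the test, in 10 control libraries (grey) and 10 libraries at 12.5 µM heme-albumin (red). Each point is 1 library, and the bar gives the mean with the SD. The Alas1 groups do not overlap, whereas those of the 6 higher genes overlap by a few libraries.

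Osgin1 (ENSMUSG00000074063, chromosome 8 of GRCm38, 119434124 to 119446256, plus strand) encodes a growth inhibitor induced by oxidative stress. Its level ran from 4.79 to 8.31 CPM in the controls with a median of 6.18. At 12.5 µM it ran from 7.16 to 13 CPM with a median of 9.55. For Osgin1, 9 of the 10 exposed libraries lay above every control. It rose by 0.61 on the log2 scale (SE 0.103, adjusted p = 0.00308 by edgeR), the smallest adjusted p of all genes, and it passed in all 20 fits that left out 1 library.

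Gclm (ENSMUSG00000028124, chromosome 3 of GRCm38, 122245557 to 122270732, plus strand) encodes the modifier subunit of glutamate-cysteine ligase, which makes the precursor of glutathione. Control levels of Gclm were 95.3 CPM at the lowest, 119 at the median and 136 at the highest. The exposed levels were 116, 150 and 173 CPM in the same order, so that 8 exposed libraries were above every control and 1 was below the control median. The log2 fold change of Gclm was 0.33 (SE 0.0630, adjusted p = 0.00824 by edgeR). Without control replicate 6 or 9 or exposed replicate 3 the adjusted p of Gclm by edgeR was 0.0659, 0.0532 or 0.0567. Gm17494, on the opposite strand, shares 14775 bases with Gclm. Srxn1 (ENSMUSG00000032802, chromosome 2 of GRCm38, 152105516 to 152111376, plus strand) encodes sulfiredoxin, which repairs overoxidized peroxiredoxins. Its level was 62.1 to 95 CPM in controls with a median of 74.8, and 89.6 to 121 CPM at 12.5 µM with a median of 103. Of the controls, 9 lay below the lowest exposed library for Srxn1. It rose by 0.43 on the log2 scale (SE 0.0891, adjusted p = 0.0259 by edgeR), a call that was lost in 9 of the 20 fits that left out 1 library (control replicates 1, 3, 6, 8 and 9 and exposed replicates 1, 8, 9 and 10, adjusted p by edgeR up to 0.115) and after the GC and length correction (adjusted p = 0.137 by edgeR).

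Ephx1 (ENSMUSG00000038776, chromosome 1 of GRCm38, 180976210 to 181020904, minus strand) encodes microsomal epoxide hydrolase, a detoxification enzyme. Control levels of Ephx1 were 126 CPM at the lowest, 135 at the median and 153 at the highest, and exposed levels were 140, 155 and 189 CPM. The groups overlapped in part, with 7 exposed libraries above every control for Ephx1. Its log2 fold change was 0.21 (SE 0.0433, adjusted p = 0.0228 by edgeR), and that call was lost without the filter on low counts (0.22, adjusted p = 0.0529), without the libraries that held choroid plexus RNA (0.24, adjusted p = 0.0760) and after the GC and length correction (0.16, adjusted p = 0.539). It was also lost in 13 of the 20 fits that left out 1 library, and it held without control replicates 2, 4 and 10 and exposed replicates 1, 2, 5 and 6.

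Neither of the other genes that rose was among the NRF2 targets listed. Ptprn (ENSMUSG00000026204, chromosome 1 of GRCm38, 75247027 to 75264502, minus strand) encodes a membrane protein of the dense-core vesicles of neurons and endocrine cells. Its level was 104 to 170 CPM in controls with a median of 134, and 148 to 216 CPM at 12.5 µM with a median of 180. Of the exposed libraries, 8 lay above every control for Ptprn. It rose by 0.42 on the log2 scale (SE 0.0802, adjusted p = 0.00824 by edgeR). The antisense gene Gm28294 shares 5106 bases with Ptprn. Without the libraries that held choroid plexus RNA its adjusted p by edgeR was 0.698 and its log2 fold change 0.32, and after a correction for GC content and length these were 0.137 and 0.29.

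Ikbkg (ENSMUSG00000004221, chromosome X of GRCm38, 74393290 to 74453854, plus strand) encodes NEMO, the regulatory subunit of the kinase complex that activates NF-kappaB. Control levels of Ikbkg were 44.9 CPM at the lowest, 55.1 at the median and 58.7 at the highest, and exposed levels were 57.6, 64.2 and 71.8 CPM. In Ikbkg 9 of the exposed libraries lay above every control. The log2 fold change was 0.25 (SE 0.0474, adjusted p = 0.00951 by edgeR). Without control replicate 3 it was 0.23 (adjusted p = 0.0628 by edgeR), and without the libraries that held choroid plexus RNA it was 0.26 (adjusted p = 0.0834 by edgeR). The whole of G6pdx, the first enzyme of the pentose phosphate pathway and an NRF2 target, lies inside Ikbkg on the opposite strand over 19712 bases, so reads of the pair may not be told apart. G6pdx had 182 ± 16.8 CPM in controls and 215 ± 17.7 CPM at 12.5 µM, with a log2 fold change of 0.24 that did not pass (adjusted p = 0.128 by edgeR).

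Promoter sequences of genes on the NRF2 list, and of Ikbkg, are shown because NRF2 with small MAF proteins binds a known element. The letters TGACNNNGC, or GCNNNGTCA on the other strand, were sought in windows from 250 bases before to 50 bases after each RefSeq start site (GRCm38.p6). Of 32851 such windows, 12.4% held a match, and 14% of genes did. Of the 25 NRF2 targets with a window, 11 held one, among them Gclm, Srxn1 and G6pdx, whereas the windows of Osgin1, Ephx1, Slc7a11, Nqo1, Ptprn and Alas1 held none. A match is a description of the letters and not a site of binding, and no match says only that these letters are not in this window. The 250 bases before the start sites of Gclm (chr3:122245307-122245556, plus strand), Ikbkg (chrX:74424362-74424611, plus strand, 1 of its 4 windows) and G6pdx (chrX:74428881-74429130, minus strand), and 30 bases of Srxn1 just after its start (chr2:152105542-152105571, plus strand), read as follows from 5′ to 3′ with the match in capitals.
Gclm: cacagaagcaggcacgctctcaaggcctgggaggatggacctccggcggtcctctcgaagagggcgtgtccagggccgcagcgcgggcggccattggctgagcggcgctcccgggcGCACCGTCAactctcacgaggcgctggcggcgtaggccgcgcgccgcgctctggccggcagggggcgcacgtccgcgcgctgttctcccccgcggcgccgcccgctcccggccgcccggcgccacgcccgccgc
Ikbkg: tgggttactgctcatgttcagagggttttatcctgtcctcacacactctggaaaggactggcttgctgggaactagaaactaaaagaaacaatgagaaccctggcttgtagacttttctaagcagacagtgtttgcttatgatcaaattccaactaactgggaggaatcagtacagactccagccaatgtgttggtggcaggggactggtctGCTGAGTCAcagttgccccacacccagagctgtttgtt
G6pdx: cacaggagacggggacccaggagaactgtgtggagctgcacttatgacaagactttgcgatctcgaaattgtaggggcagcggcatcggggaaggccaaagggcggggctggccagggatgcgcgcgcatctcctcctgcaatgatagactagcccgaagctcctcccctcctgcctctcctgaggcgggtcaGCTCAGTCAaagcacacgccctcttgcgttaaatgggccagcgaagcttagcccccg
Srxn1: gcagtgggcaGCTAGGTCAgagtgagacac
Each of the 4 stretches holds 1 match, all in the GCNNNGTCA orientation of the printed strand.

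Genes of the NRF2 list were higher as a group at 12.5 µM, although most did not pass the test singly. The list was chosen with earlier results of these data known, so its counts and sums are a description and not an independent test. Of the 30 targets, all tested, 29 had a log2 fold change above 0 and 4 rose (Osgin1, Gclm, Srxn1 and Ephx1), against 0.0386% of all genes. At an unadjusted p under 0.05, 23 were higher and 0 were lower, against 4.40% and 3.48% of all genes (7.88% in either direction). The median log2 fold change was 0.23, beside -0.01 over all genes tested, of which 48.1% were above 0. The summed level of the list was 4462 to 6086 CPM in the controls with a median of 5215. In the exposed libraries it was 6152 to 7211 CPM with a median of 6573, so the groups did not overlap. The sums of every other list overlapped. Genes of high level weigh most in such a sum. Among them Hmox1, whose own groups overlapped, had means of 1349 CPM in controls and 1852 CPM at 12.5 µM. With the share of mitochondrial counts as a covariate, 24 members were higher at an unadjusted p under 0.05, against 2.49% of all genes, and the median was 0.22. Without the libraries that held choroid plexus RNA the count was 22, against 2.00% of all genes. In that fit the median was 0.25 and 28 members were above 0.

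**Figure D2:**
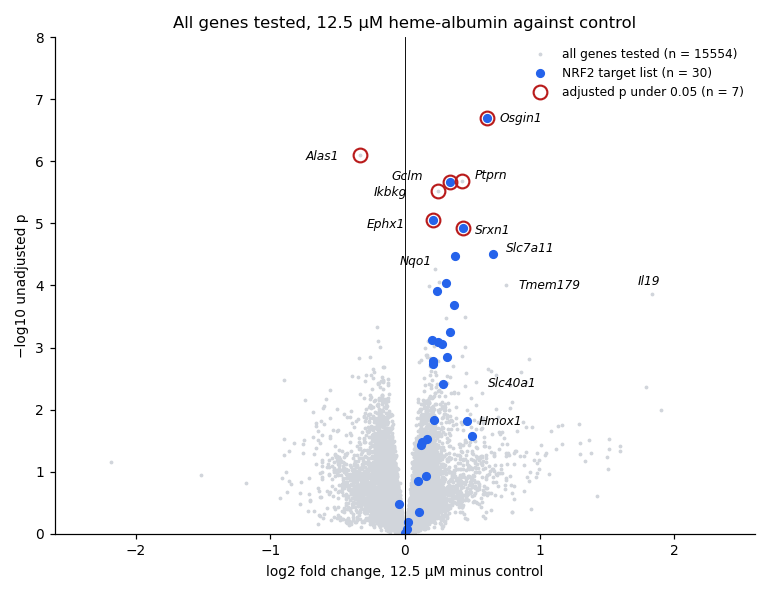
Log2 fold change at 12.5 µM heme-albumin (horizontal axis) and −log10 of the unadjusted p (vertical axis) of the 15554 genes tested. Blue points are the 30 NRF2 targets and red rings the 7 genes that passed the test; 29 of the 30 targets lie to the right of 0.

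Members of the list outside the threshold were described by their values. Slc7a11, the cystine importer that supplies glutathione synthesis, was 102 to 220 CPM in controls with a median of 188, and 157 to 365 CPM at 12.5 µM with a median of 308. For Slc7a11, 9 of the exposed libraries lay above every control and 1 below the control median, with a log2 fold change of 0.66 (95% interval 0.37 to 0.95, adjusted p = 0.0569 by edgeR). Nqo1, a quinone reductase widely read as a marker of NRF2, was 8.38 to 13.4 CPM in controls (median 10.6) and 11.9 to 17.2 CPM at 12.5 µM (median 13.7). Every exposed library was above the control median of Nqo1, and the log2 fold change was 0.37 (adjusted p = 0.0569 by edgeR). Gstm1, a glutathione transferase, was 194 to 281 CPM in controls (median 264) and 266 to 363 CPM at 12.5 µM (median 313), with a log2 fold change of 0.30 (adjusted p = 0.115 by edgeR). All of Slc7a11, Nqo1 and Gstm1 passed with DESeq2 (adjusted p = 0.0135, 0.0316 and 0.0452), and Slc7a11 also passed after the GC and length correction (adjusted p = 0.0012 by edgeR).

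Among enzymes of the pentose phosphate pathway, Pgd, which makes NADPH, had a log2 fold change of 0.28, and Tkt and Taldo1 of the non-oxidative branch had 0.24 and 0.21, none past the threshold. Thioredoxin reductase 1 (Txnrd1) had 0.20, peroxiredoxin 1 (Prdx1) 0.28, carbonyl reductase 3 (Cbr3) 0.36 and the autophagy receptor Sqstm1 0.33. At the lower end stood Gclc, the catalytic partner of Gclm, with 0.15 (95% interval -0.04 to 0.35), Cbr1 with 0.02, Gstm5 with 0.01 and Gsta4 with 0.00. Ugdh was the 1 member below 0, at -0.05. Glutathione transferases resemble each other in sequence, so the counts of Gstm1, Gstm5, Gsta3 and Gsta4 are uncertain to the extent that reads were shared.

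**Figure D3:**
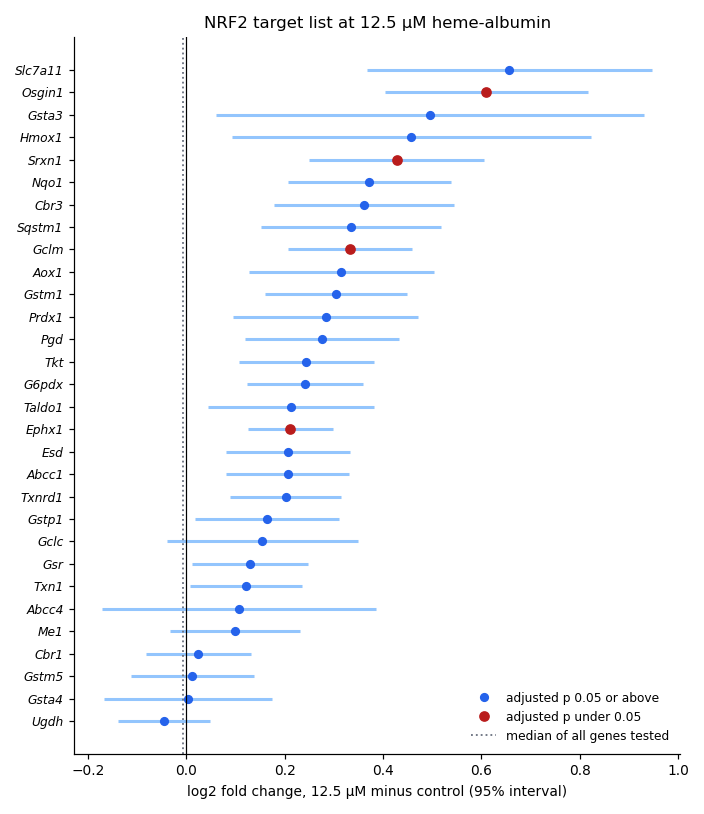
Log2 fold change at 12.5 µM heme-albumin against control (horizontal axis, points with 95% intervals) of the 30 NRF2 targets, sorted. Red points mark Osgin1, Srxn1, Gclm and Ephx1, which passed the test, and the dotted line the median of all genes tested.

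Transcripts of the proteins that govern NRF2 showed smaller differences, and none of the 9 regulators passed. The proteins themselves were not measured here. Mafg, a small MAF partner of NRF2, had 103 ± 15.3 CPM in controls and 121 ± 11 CPM at 12.5 µM (log2 fold change 0.23, unadjusted p = 0.00158). Nfe2l2, which encodes NRF2, had a log2 fold change of 0.03, Bach1 one of -0.04 and Keap1 one of 0.13. Of 16 genes of glutathione synthesis and use, Gclm, Gclc, Gsr and Slc7a11 are also on the NRF2 list. Gclm rose and 5 more were higher at an unadjusted p under 0.05, against 4.40% of all genes. These were Slc7a11, its partner chain Slc3a2 (0.23), glutathione reductase Gsr (0.13), Ggt7 (0.28) and Gsto1 (0.10), while Chac2 was lower (-0.18). The median of these 16 was 0.11.

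Heme breakdown and iron export showed differences that did not pass the test at this dose. Hmox1, the inducible heme oxygenase, was 638 CPM at the lowest, 1197 at the median and 2186 at the highest in controls. At 12.5 µM it was 1450, 1685 and 2866 CPM. The groups of Hmox1 overlapped widely, although 6 controls lay below every exposed library, and the log2 fold change was 0.46 (95% interval 0.09 to 0.82, adjusted p = 0.614 by edgeR). The spread of Hmox1 between control libraries, 1349 ± 551 CPM (SD, n = 10), exceeded the difference of the means.

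Slc48a1, which carries heme out of lysosomes, was 177 to 289 CPM in controls (median 246) and 244 to 354 CPM at 12.5 µM (median 293). Of the exposed libraries, 5 lay above every control, and the log2 fold change of Slc48a1 was 0.31 (adjusted p = 0.278 by edgeR). After the GC and length correction Slc48a1 passed, with 0.21 (adjusted p = 0.0221 by edgeR). Slc40a1 encodes ferroportin, the iron exporter. It was 8.64 to 27.8 CPM in controls (median 14.9) and 18.4 to 29.6 CPM at 12.5 µM (median 22.7). Only 1 exposed library of Slc40a1 lay above the highest control, with a log2 fold change of 0.53 (95% interval 0.18 to 0.87, adjusted p = 0.614 by edgeR). Blvrb, a biliverdin reductase, had a log2 fold change of 0.31 and Abcg2, a porphyrin exporter, one of -0.23, both at an unadjusted p under 0.05. The transferrin receptor Tfrc had -0.32, and the ferritin chains Ftl1 and Fth1 had 0.30 and 0.18 with intervals that reached below 0. Over the 10 genes of heme breakdown and transport the median was 0.01, and over 19 iron genes 0.01. Of the scavenger receptors, Cd163 had 4.54 ± 2.25 CPM in controls and 3.94 ± 1.2 CPM at 12.5 µM, and Lrp1 had 1743 ± 285 and 1669 ± 255 CPM. The median of 4 scavenging genes was -0.16, and none passed the test.

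No gene of the other stress lists passed the test. Of 26 targets of ATF4, the factor of the amino acid response, 23 were above 0 (median 0.14), beside 48.1% of all genes. At an unadjusted p under 0.05, 9 were higher, against 4.40% of all genes. With the mitochondrial share as a covariate 4 were higher at that p, against 2.49% of all genes. Slc3a2 had 265 ± 16.6 CPM in controls and 311 ± 25.5 CPM at 12.5 µM, and Eif4ebp1, a repressor of translation, had a log2 fold change of 0.26. Of 18 chaperones of the endoplasmic reticulum 14 were below 0 (median -0.05), with the folding chaperone Hsp90b1 at -0.15 and the disulfide isomerase Pdia3 at -0.13. Of 6 genes of the aryl hydrocarbon receptor list 4 were higher at an unadjusted p under 0.05, against 4.40% of all genes. These were Ahrr, Cyp1a1, Cyp1b1 and Nqo1, which is also on the NRF2 list. The median of the aryl hydrocarbon receptor list, 0.38, was above that of the NRF2 list. Ahrr, the repressor of that receptor, was 2.00 to 2.74 CPM in controls and 2.57 to 3.96 CPM at 12.5 µM, with a log2 fold change of 0.42 (adjusted p = 0.585 by edgeR). Cholesterol synthesis and uptake had 17 of 21 genes above 0 (median 0.07), and none passed the test. Cytosolic heat shock genes, p53 targets, HIF targets, metallothioneins and ferroptosis regulators had medians of 0.03, 0.06, -0.10, -0.02 and 0.03, and none of their members passed.

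Inflammatory genes did not move together. Of 25 genes of inflammatory activation 14 were above 0 (median 0.06), beside 48.1% of all genes. Il19, Clec4n and Tnfrsf1a were higher at an unadjusted p under 0.05, against 4.40% of all genes. Il19 encodes a cytokine of the interleukin 10 family. It was 0 to 0.943 CPM in controls (median 0.357, from 0 to 14 reads per library) and 0.677 to 3.33 CPM at 12.5 µM (median 1.31, from 10 to 78 reads). Of the controls 9 lay below every exposed library for Il19, and the log2 fold change was 1.84 (95% interval 0.94 to 2.74, adjusted p = 0.134 by edgeR, and 0.0137 by DESeq2). Clec4n, the lectin receptor Dectin-2 of myeloid cells, had 5.32 ± 2.22 CPM in controls and 8.22 ± 1.62 CPM at 12.5 µM, a log2 fold change of 0.64. Tnfrsf1a, a receptor of tumor necrosis factor, had 234 ± 13.8 and 251 ± 12.6 CPM, and Gpr84, a receptor of activated microglia, 2.82 ± 0.860 and 2.56 ± 0.837 CPM. Of the early response factors, Ier3 had 0.45 and Fosl1, a component of AP-1, 0.33, and the median of that list was 0.04. Interferon-stimulated and complement genes had medians of -0.02 and -0.16, with no call.

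Other genes nearest the threshold were mostly higher. Ube2o, a ubiquitin-conjugating enzyme, had 44.5 ± 3.17 CPM in controls and 52 ± 3.44 CPM at 12.5 µM (adjusted p = 0.0846 by edgeR and 0.0360 by DESeq2). Rrp12, a factor of ribosome assembly, had 29.5 ± 2.16 and 35.1 ± 2.34 CPM. Tmem179 was 11.7 to 33.7 CPM in controls and 24.1 to 44.4 CPM at 12.5 µM. Its log2 fold change was 0.75 (adjusted p = 0.115 by edgeR and 0.0308 by DESeq2). Map2k3 also passed with DESeq2, at 0.18 (adjusted p = 0.0278). On the lower side nothing but Alas1 passed. The next by unadjusted p among genes of at least 1 CPM was Prcp, a lysosomal peptidase, with 29.9 to 43.2 CPM in controls and 28 to 32 CPM at 12.5 µM (log2 fold change -0.21, adjusted p = 0.364 by edgeR). Every exposed library lay below the control median of Prcp. Retreg1, a receptor for autophagy of the endoplasmic reticulum, had -0.18, the potassium channel Kcnj2 -0.26, the cGMP phosphodiesterase Pde5a -0.34 and the transcription factor Hlf -0.29. The remaining genes of this direction, Rmi1, Slc35a5, Snap23, Lrrn1, Zfp449 and Ythdc2, lay between -0.25 and -0.15.

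Markers of cell types were examined beside these values. Brain markers were present in both groups, with Mbp of myelin at 9362 and 9925 CPM and Aqp4 of astrocytes at 641 and 538 CPM on average, and of 10 blood cell markers 1 was high enough to be tested. Of all genes tested 48.1% had a log2 fold change above 0. Of 15 neuronal markers 14 were above 0 (median 0.45). At an unadjusted p under 0.05, 4 were higher, namely Snhg11, Gad1, Gad2 and Grin1, against 4.40% of all genes. Without the libraries that held choroid plexus RNA 0 of the 15 were, against 2.00% of all genes, and the median was 0.54. The summed neuronal markers ran from 606 to 855 CPM in controls and from 608 to 1210 CPM at 12.5 µM, with medians of 648 and 683. Markers of the hypothalamus, a region that coronal slices hold to a varying extent, had a median of 0.64 over 9 genes and summed levels of 5.55 to 40.1 and 5.55 to 72.1 CPM. All 10 microglial markers were below 0 (median -0.28). Only P2ry12 was lower at an unadjusted p under 0.05 (1 of 10, against 3.48% of all genes). It had 9.96 ± 1.70 CPM in controls and 8.06 ± 1.37 CPM at 12.5 µM. Sums of the microglial markers ran from 641 to 2418 CPM in controls and from 821 to 1887 CPM at 12.5 µM. Of 10 astrocyte markers 8 were below 0 (median -0.09), and of 10 markers of pericytes and fibroblasts 9 were below 0 (median -0.31). None of these markers passed, and their part in the results was not tested.

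**Figure D4:**
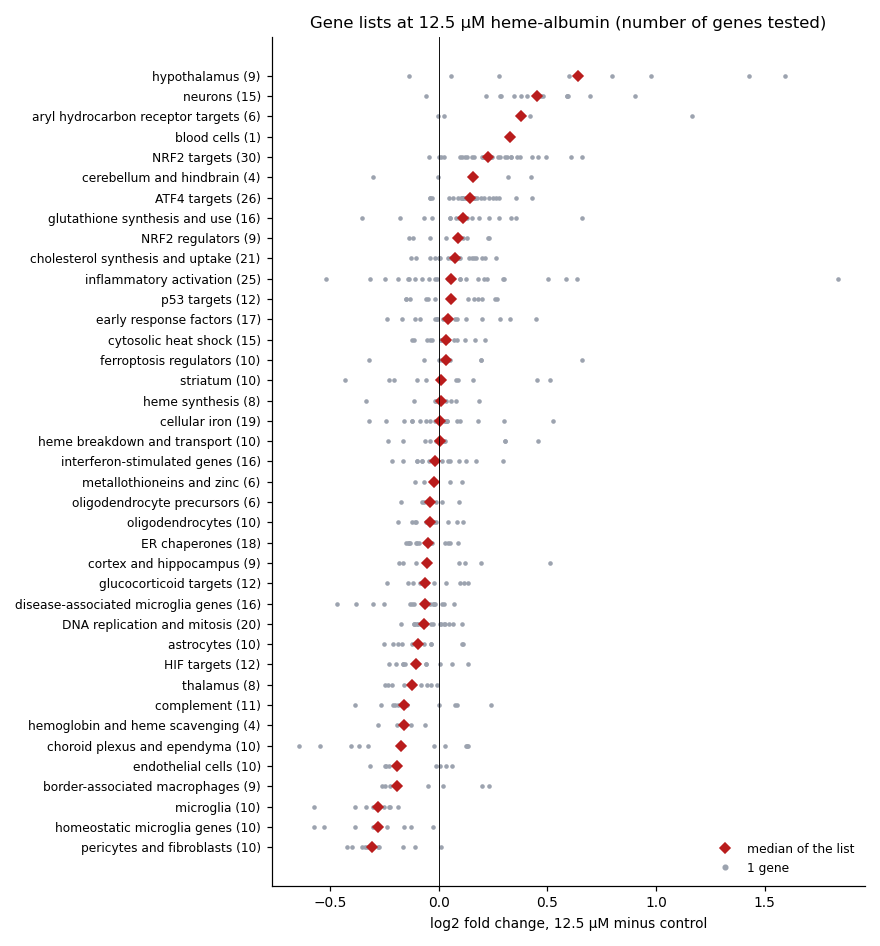
Log2 fold change at 12.5 µM heme-albumin (horizontal axis) of the genes of 39 lists (grey points) with the median of each list (red diamonds); the number in brackets is the number of genes tested. NRF2 targets have a median of 0.23 with 29 of 30 genes above 0, and the lists with higher medians hold 15 genes or fewer.

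Depth and composition differed among the libraries. Total counts were 11038484 to 29576977 in controls (median 16404294) and 14851922 to 41685945 at 12.5 µM (median 23505256). The mitochondrial share was 3.07 to 5.57% in controls (median 4.03) and 2.68 to 5.25% at 12.5 µM (median 3.01). In the controls 5 libraries lay at 3.07 to 3.29% and the other 5, which had 11038484 to 13393773 counts against 19414814 to 29576977, at 4.77 to 5.57%. At 12.5 µM 6 libraries lay at 2.68 to 3.04% and 4 at 3.84 to 5.25%, and the labels name no batch for this. With that share as a covariate 7 genes passed, 6 of them shared with the 7 above, G6pdx was added, and Srxn1 had an adjusted p of 0.0591 by edgeR, while the genes at an unadjusted p under 0.05 went from 1226 to 596. Leaving out 1 library moved that count of 1226 to between 727, without control replicate 5, and 2072, without control replicate 4. It was 810 and 799 without control replicates 1 and 3, 759 and 761 without exposed replicates 9 and 10, 1864 without control replicate 10, and 2053 without exposed replicate 5. The Ttr level, a marker of choroid plexus, was at least 86.5 CPM in 3 control and 3 exposed libraries and at most 0.841 CPM in the others, and without these 6 libraries Osgin1, Gclm and Srxn1 passed.

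The higher doses show where 12.5 µM lies in the series. Each was compared with the same 10 controls, so the comparisons are not independent. At 50 µM 72 genes passed (0.463%), at 200 µM 2113 (13.6%) and at 400 µM 4510 (29%). Osgin1 had log2 fold changes of 0.61, 0.87, 1.37 and 1.85 at 12.5, 50, 200 and 400 µM, and Slc40a1 had 0.53, 1.39, 2.03 and 2.38. Alas1 had -0.33, -0.51, -0.92 and -0.93. Hmox1 had 0.46, 1.03, 1.32 and 1.76, and passed the test from 50 µM (adjusted p = 0.000414 by edgeR). The median of the NRF2 list was 0.23, 0.40, 0.58 and 0.64, and that of the ATF4 list 0.14, 0.17, 0.47 and 0.79.

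**Figure D5:**
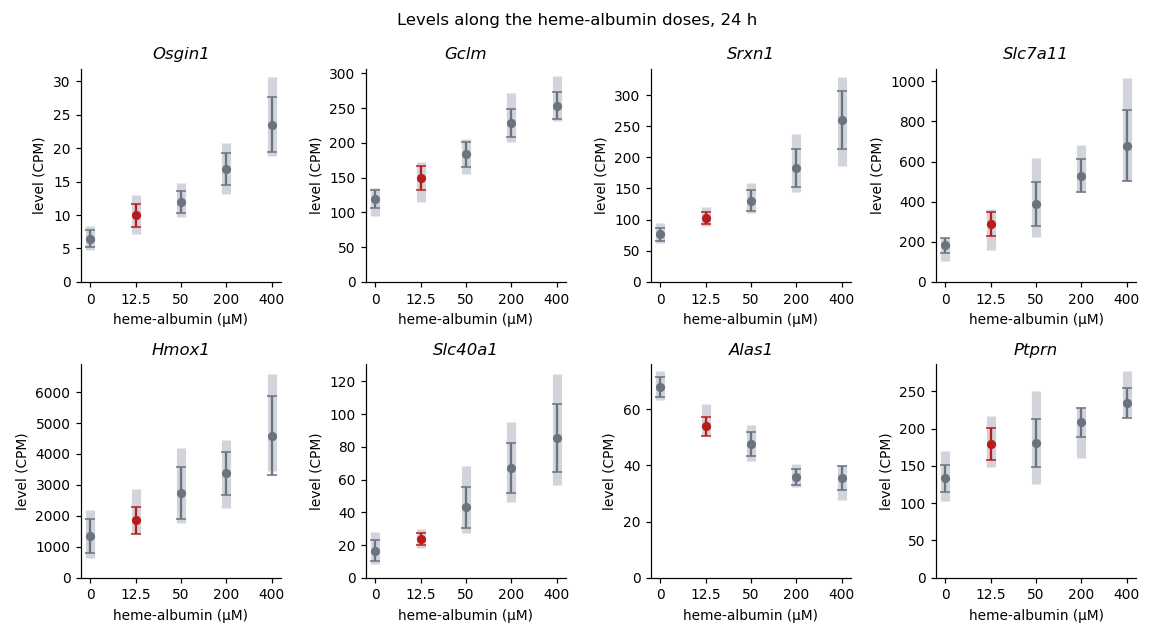
Levels in CPM (vertical axes, from 0) of 8 genes in control slices and at 12.5, 50, 200 and 400 µM heme-albumin (horizontal axis, doses evenly spaced), 10 libraries each. Points are means with SD bars, grey bands run from the lowest to the highest library, and red marks 12.5 µM. The mean of Alas1 at 12.5 µM lies between those of the control and 50 µM groups, and that of Ptprn is at the level of 50 µM.

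The step from 12.5 to 50 µM was tested directly, without the controls. No gene passed in the main edgeR fit, while 196 had an unadjusted p under 0.05 (1.26% of the genes tested). DESeq2 called 2, Slc40a1 and Gclm. Other edgeR fits called 1 with RLE scaling, 3 without a filter on low counts and 2 with the library code as a replicate block. Slc40a1 was higher at 50 µM by 0.87 on the log2 scale (95% interval 0.53 to 1.2, adjusted p = 0.0569 by edgeR), more than its difference of 0.53 between 12.5 µM and control. Gclm was higher at 50 µM by 0.30 (interval 0.17 to 0.42) and Hmox1 by 0.57 (interval 0.20 to 0.93). Alas1 was lower by a further 0.18, with an interval of -0.30 to -0.06. For Ptprn the difference was 0.01 (interval -0.15 to 0.17), for Rrp12 0.01 (interval -0.11 to 0.13) and for Tmem179 0.11 (interval -0.24 to 0.47). Of the 30 NRF2 targets 27 had a log2 fold change above 0 from 12.5 to 50 µM (median 0.13), beside 50.8% of all genes. Over all genes 0.675% were higher at an unadjusted p under 0.05, which was not counted here for the NRF2 list.

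The difference between exposed and control slices was also compared between libraries whose names carry the letter M and those with W, 5 of each per group, which matched the Y-linked genes in all 20. No gene differed with edgeR or with DESeq2, and 167 had an unadjusted p under 0.05 in edgeR. The log2 fold changes of Alas1 were -0.36 in M and -0.31 in W libraries, those of Gclm 0.38 and 0.28, and those of Osgin1 0.46 and 0.74. The neuronal transcript Snhg11 had 1.17 in M and 0.10 in W libraries, a difference that did not pass the test.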

How the data were processed

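Bulk mRNA of brain slice cultures (Lexogen SPLIT extraction, Illumina TruSeq mRNA) was measured. The deposited values are unscaled whole-number counts of reads for each Ensembl gene. Submitters' processing notes name featureCounts and GRCm39, and the aligner, versions and strand setting are not given in the sources used here. Positions and overlaps come from GENCODE M21 (GRCm38), and promoters from RefSeq GRCm38.p6. Counts of 60 libraries of batch 1 were fitted with edgeR 4.0.16 in R 4.3.3 (filterByExpr with smallest count 10 and smallest total 15, TMM scaling, quasi-likelihood F test, Benjamini-Hochberg adjusted p under 0.05) without covariates. DESeq2 1.42.0 was an alternative. Each SE was derived from the fold change and its F statistic. Fits were tested on simulated data. Genes named are those of the study, the 12 per direction with the strongest evidence at a mean of at least 1 CPM, and for each of 39 lists the called genes or the pair with the smallest p. G6pdx, Blvrb, Tfrc, Alad and further list members were named after their values were seen. Members and lists were chosen with earlier results of these data known. The GC, choroid plexus and mitochondrial settings were added after seeing the data. Libraries of other batches were not used.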

Additional observations from a re-analysis of the deposited data

Results flagged for a closer look

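Of 196 groups of 10 values examined, 12 held a library far from the other 9, by the gap to its neighbour as a share of the group's range, and chance gives about 1 in 20. In exposed replicate 8 Alas1 was highest at 61.9 CPM (share 0.496), Dcn highest at 220 CPM (0.491), Mobp highest at 3914 CPM (0.629) and Mcm6 lowest at 60.03 CPM (0.538). In control replicate 2 Slc7a11 was lowest at 102 CPM (0.512), Slc30a1 lowest at 48.3 CPM (0.636) and Plekhg1 lowest at 94.96 CPM (0.496). In control replicate 3 Cd163 was lowest at 1.27 CPM (0.476) and Il19 was at 0 (0.571). In other exposed libraries Ccdc153 was lowest at 4.10 CPM (0.549), Hpx lowest at 0.124 CPM (0.598) and S100a8 highest at 2.81 CPM (0.474). Without exposed replicate 8 the log2 fold change of Alas1 was -0.36 (adjusted p = 0.00136 by edgeR).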

How the results depend on the processing

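The 7 genes that differed at 12.5 µM became 14 with DESeq2 (all 7 shared), 1 with the 20 libraries alone, 3 without the libraries with choroid plexus RNA, and 0 in M or in W libraries alone (439 and 853 at an unadjusted p under 0.05). Leaving out 1 library at a time gave 4 to 10, and the 4 came without control replicates 3, 6 or 9. Between 50 and 12.5 µM the 0 genes became 2 with DESeq2, 1 with RLE scaling and 3 without a filter. RLE scaling, both filters, the letter and mitochondrial covariates and the GC and length correction gave 6 to 8 genes, of which 4 were shared under the GC and length correction, and the M against W difference gave 0 under each alternative run. Of single genes, Slc30a1 (0.00583 in M libraries), Foxj1 (-0.0129 in M libraries), Keap1 (-0.00367 after GC correction) and Mt3 (-0.0304 after GC correction) changed sign. None of these 4 had passed the test.

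With the library code as a replicate block, 22 genes differed at 12.5 µM, including the 7, and 2 between 50 and 12.5 µM. Of the 30 NRF2 targets 9 then passed as higher in place of 4, against 21 of the 15554 genes tested. Those added on the list were Nqo1, Slc7a11, Cbr3, Pgd and G6pdx. Outside the list Slc48a1, Mafg, Rrp12, Tmem179, Ier3, Il19, Map2k3, Mfap1b, Tbcc and Ube2o passed too. In that fit 27 of the 30 targets were above 0 in place of 29. The codes were not taken as pairs. Of 11 same-code pairs 8 correlated above 0.1 (range -0.41 to 0.72). The median was 0.38 for pairs of the same code and 0.02 for pairs of other codes. Codes M1 to M5, W4 and W5 ran from 0.25 to 0.72. All pairs below 0.1 had the codes W1 or W3, which are repeated within a group. Of 10 exposed libraries 5 correlated best with their own code.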
